A study of Drosophila melanogaster with 9 samples.

Results

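The 69 genes described here encode proteins of the mitochondrial ribosome of Drosophila melanogaster. They are all the genes to which a probe set of the Affymetrix Drosophila Genome 2.0 array was assigned singly under a symbol beginning mRpL or mRpS and a digit. By the letter of the symbol, 44 belong to the large subunit (mRpL) and 25 to the small subunit (mRpS). They are among 8822 features tested on the array. A gene with more than 1 probe set was represented by the one whose mean over the 9 arrays was highest. All 69 passed the filter on low values, since every array held each of them between log2 7.57 and log2 12.90. Total RNA came from heads and thoraces of Canton-S females, which are wild-type laboratory flies, at 10 days of age. They had been fed a restricted diet, a normal diet to which the plant polyphenol resveratrol was added, or a normal diet alone, with 3 biological replicates of each. All flies carried the same wild-type background, and each array was hybridised with RNA pooled from at least 75 females. What the diets contained, and how much resveratrol was fed and for how long, is not stated in the labels.

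Mitochondria keep a small genome of their own, whose messages for core subunits of the respiratory chain are translated inside the organelle by a dedicated ribosome. The RNA of that ribosome comes from the mitochondrial genome, while its proteins are encoded in the nucleus, made in the cytosol and imported. The large subunit joins amino acids and holds the exit tunnel, and the small subunit binds the messenger RNA and decodes it. Some of these proteins descend from those of bacterial ribosomes and others are found in mitochondria alone. Flight muscle of the thorax and photoreceptors of the head are tissues with a heavy demand for mitochondrial respiration.

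Values are log2 units of the deposited summaries, and a change is a difference of such values. Over the features tested, the correlation between 2 arrays was 0.973 to 0.991 within a diet and 0.932 to 0.990 between diets. Markers of the labelled tissue were high on all arrays. The mean of 6 flight and leg muscle markers lay between 12.41 and 13.06, that of 5 photoreceptor markers between 12.32 and 12.86, and that of 6 neuron markers between 8.57 and 9.30. Female germline markers were present as well and varied between arrays. The mean of osk, aub, bam, orb, piwi and otu, 6 of 8 listed, was 8.50, 7.05 and 7.70 on the restricted-diet arrays, 8.18, 7.54 and 5.31 with resveratrol, and 5.69, 5.63 and 6.56 on the normal diet. The germline factor bam lay below log2 5 on all arrays and under log2 3 on 4 of them. No germline marker passed the test in any comparison. Midgut markers were higher on the restricted diet (5 of 7 passed), and all 5 photoreceptor and 5 of 6 neuron markers were lower. Of the muscle markers 2 of 6 passed as lower (changes of -0.66 for TpnC4 and -0.44 for Zasp52), and of the fat body markers 2 of 4 passed as higher (3.89 for Lsp2 and 0.78 for fit). In such pooled tissue, fewer cells of a type and less RNA per cell cannot be told apart. The mean difference between 3' and 5' control probe sets, a sign of RNA quality, was 1.13 to 1.33 on the restricted diet, 1.38 to 1.43 with resveratrol and 1.34 to 1.43 on the normal diet.

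Flies on the restricted diet were compared with those on the normal diet first. The mitochondrial ribosomal protein genes stayed close to their normal-diet levels. mRpL15 rose by 0.30 (1.23-fold), and mRpS7 and mRpS30 fell by 0.26 and 0.23 (1.20-fold and 1.17-fold lower), while the other 66 did not pass limma's test at an adjusted p under 0.05. The 3 genes are 4.35% of the members, beside 18.2% of all 8822 features past the same threshold. By direction, 5.27% of all features passed as higher and 12.9% as lower. At an unadjusted p under 0.05 there were 13 members, and the corresponding share of all features was 37.7%. No member reached a 2-fold change: the changes ran from -0.27 for mRpS5 to 0.33 for mRpS18A. Changes beyond 0.25 in either direction were seen for 7 members, against 38.7% of all features. The median change of the members was 0.014, with 38 above 0 and 31 below, beside -0.05 over all features. That median was -0.0086 without normal-diet replicate 2 and -0.0042 without restricted-diet replicate 1, so it has no settled sign.

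Intervals of the members were set against a bound of 0.5, which is wider than any change seen among them. The 95% interval of the change lay wholly between -0.5 and 0.5 for 63 of the 69 members, and for 59.5% of all features. The residual standard deviation between arrays of a diet had a median of 0.08 for the members and 0.12 for all features. Among the 5391 features with a mean level in the members' range it was 0.11, and 21.8% of those features passed. Some deposited values were identical across arrays: mRpL52 read 9.30 on all 3 normal-diet arrays, an SD of 0. The same value recurred for mRpL52 on arrays of both other diets. Repeated values were also seen for mRpL42 and mRpS33 across diets, and for mRpL16 on resveratrol replicates 1 and 3. How such ties bear on the residual spread of the members was not examined. The count of members past the threshold was 0 without normal-diet replicate 1, when 332 of all features passed. It was 1, mRpS7, without any one of the other 5 normal-diet or restricted-diet arrays. Leaving out a resveratrol array, which enters only the shared estimate of spread, gave 5, 2 and 3 members for replicates 1, 2 and 3.

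**Figure D1:**
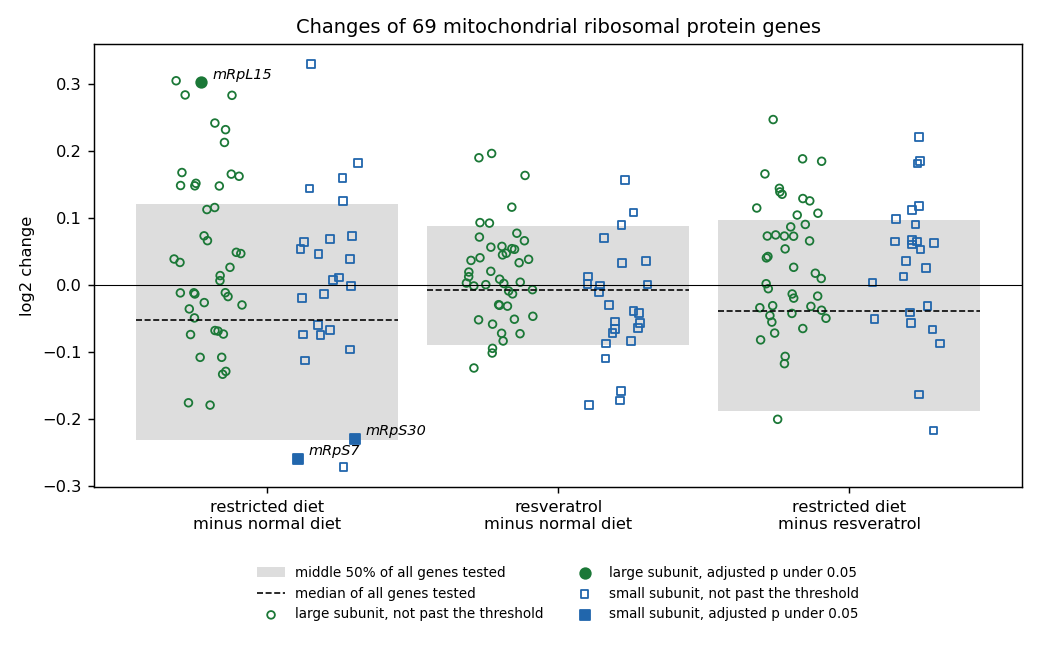
Log2 change (y axis) of each of the 69 genes in the 3 comparisons (x axis), large subunit as green circles and small subunit as blue squares; filled points passed limma at an adjusted p under 0.05, the grey band spans the middle 50% of all 8822 features and the dashed line is their median. The filled points are mRpL15, mRpS7 and mRpS30 on the restricted diet, and no member is filled in the other 2 comparisons.

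mRpS7 (CG5108) is the counterpart of a bacterial protein that organises the head of the small subunit around its ribosomal RNA. It stood at 11.42, 11.43 and 11.41 on the restricted diet, 11.51, 11.50 and 11.50 with resveratrol, and 11.74, 11.63 and 11.66 on the normal diet. The 3 diets did not overlap, with the restricted diet lowest and the normal diet highest. On the restricted diet it fell by 0.26 (SE 0.05, 95% interval -0.37 to -0.15, adjusted p = 0.0145), and without normal-diet replicate 1 by 0.23 (adjusted p = 0.0531). Against resveratrol the restricted-diet value differed by -0.09 (adjusted p = 0.276), which did not pass.

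mRpS30 (CG8470) carries a small-subunit name, although its mammalian counterpart has since been placed in the large subunit. It measured 10.21, 10.23 and 10.27 on the restricted diet, 10.17, 10.37 and 10.32 with resveratrol, and 10.46, 10.46 and 10.49 on the normal diet. All restricted-diet and resveratrol arrays lay below all normal-diet arrays, and the first 2 groups overlapped. It fell by 0.23 on the restricted diet (SE 0.06, 95% interval -0.37 to -0.09, adjusted p = 0.0375). Without any one of the restricted-diet or normal-diet arrays the change was -0.22 to -0.24 and the adjusted p 0.0718 to 0.104. The call was also lost after quantile normalization (-0.19, adjusted p = 0.0726) and with no filter on low values (adjusted p = 0.0614).

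mRpL15 (CG5219), whose bacterial relative is a core protein of the large subunit, was the only member past the threshold with a rise. Its values were 8.61, 8.47 and 8.53 on the restricted diet, 8.48, 8.51 and 8.21 with resveratrol, and 8.26, 8.19 and 8.26 on the normal diet. Restricted-diet arrays lay above every normal-diet array, while resveratrol replicate 3 fell among the normal-diet values. The rise was 0.30 (SE 0.09, 95% interval 0.10 to 0.50, adjusted p = 0.0491). Its adjusted p was 0.0643 to 0.140 without any one restricted-diet or normal-diet array, 0.0567 without resveratrol replicate 1 and 0.0597 without resveratrol replicate 2. With no filter on low values it was 0.115.

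mRpS5 (CG40049), the relative of a bacterial protein near the entry of the messenger RNA, had the lowest change of the group and lay just outside the threshold. It measured 12.51, 12.62 and 12.59 on the restricted diet, 12.62, 12.90 and 12.86 with resveratrol, and 12.86, 12.87 and 12.82 on the normal diet. Resveratrol replicate 1 lay with the restricted-diet arrays and the other two lay with the normal-diet arrays. Its change on the restricted diet was -0.27 (SE 0.08, 95% interval -0.45 to -0.09, adjusted p = 0.0504), and without resveratrol replicate 1 it passed (adjusted p = 0.0219).

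**Figure D2:**
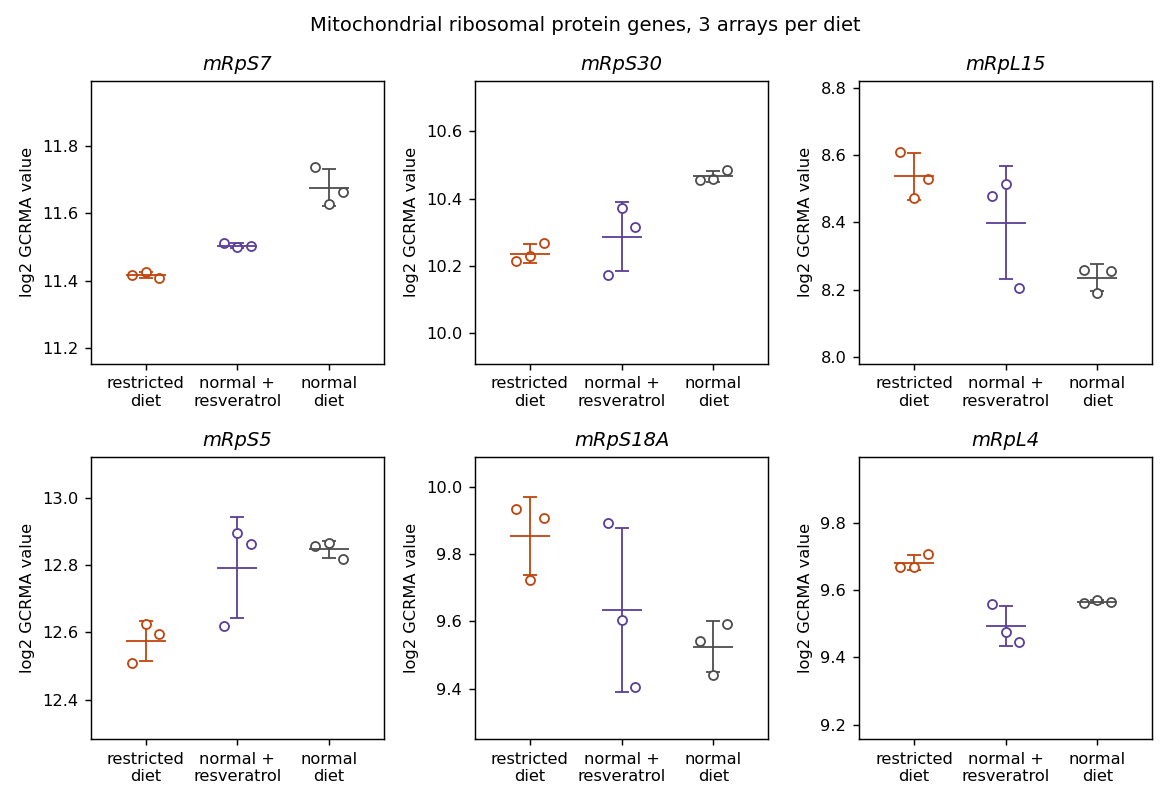
Log2 GCRMA values of 6 members by diet; open points are single arrays, the horizontal bar is the mean and the whisker the SD of 3 arrays, and each panel spans the same height on the log2 axis. mRpS7 and mRpS30 are lowest on the restricted diet, at means of 11.42 and 10.24, mRpL15 is highest there at 8.54, and the resveratrol points of mRpS18A spread from 9.41 to 9.89.

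2 large-subunit genes had the next smallest p values, both with negative changes. mRpL16 (CG3109), the relative of a bacterial protein near the peptidyl transferase centre, stood at 9.89, 9.82 and 9.88 on the restricted diet, 9.92, 9.91 and 9.92 with resveratrol, and 10.14, 9.96 and 10.02 on the normal diet. Its change was -0.18 (adjusted p = 0.0686), with normal-diet replicate 1 the highest array. mRpL45 (CG6949), whose mammalian counterpart helps to anchor the ribosome at the inner membrane, measured 9.65, 9.56 and 9.58 on the restricted diet, 9.73, 9.71 and 9.70 with resveratrol, and 9.88, 9.71 and 9.73 on the normal diet. It too changed by -0.18 (adjusted p = 0.0759), and again normal-diet replicate 1 was highest.

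3 of the 4 highest changes on the restricted diet belonged to genes that did not pass, each with wide spread between arrays. mRpS18A (CG31450), 1 of 3 fly relatives of bacterial S18, stood at 9.93, 9.72 and 9.91 on the restricted diet, 9.89, 9.60 and 9.41 with resveratrol, and 9.54, 9.44 and 9.59 on the normal diet. Its change was 0.33 (SE 0.12, adjusted p = 0.0953). mRpL39 (CG17166), which resembles a threonyl-tRNA synthetase in mammals, measured 8.88, 8.71 and 8.71 on the restricted diet, 8.95, 8.48 and 8.51 with resveratrol, and 8.50, 8.37 and 8.51 on the normal diet. It changed by 0.30 (SE 0.13, adjusted p = 0.121). Without resveratrol replicate 1, an array high for both, the 2 genes passed (adjusted p = 0.0439 and adjusted p = 0.0312). mRpL12 (CG5012), the stalk protein that engages translation factors, was at 10.39, 10.06 and 10.20 on the restricted diet, 10.20, 9.94 and 9.77 with resveratrol, and 9.96, 9.83 and 10.02 on the normal diet. Its change was 0.28 (SE 0.13, adjusted p = 0.142). For all 3 the restricted-diet arrays lay above the normal-diet arrays, and the resveratrol arrays were spread widely. Resveratrol replicate 1 lay above every restricted-diet array for mRpL39, and resveratrol replicate 3 lay below every normal-diet array for mRpS18A and mRpL12.

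Counted over single genes, the 3 restricted-diet values lay wholly above the 3 normal-diet values for 15 members and wholly below for 8. Together these 23 are 33.3% of the members, beside 44.8% of all features (16.4% above and 28.4% below). Among features in the members' range of mean level the share was 50.3%. The 15 were mRpL15, mRpS18A, mRpL39, mRpL12, mRpL4, mRpL9, mRpL14, mRpL22, mRpL32, mRpL44, mRpL47, mRpL55, mRpS18C, mRpS26 and mRpS28. The 8 were mRpS7, mRpS30, mRpS5, mRpL16, mRpL45, mRpL41, mRpL48 and mRpL54.

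Much of the variation of the members between arrays lay along one axis, which includes the differences between diets. The leading principal component of the 69 genes carried 53.4% of their variance over the 9 arrays. Values were centred but not scaled by gene, so members with a wide range weighed most. The corresponding share for other features was not computed. Its scores were 0.94, 0.33 and 0.54 on the restricted diet, 0.55, -0.18 and -0.77 with resveratrol, and -0.29, -0.94 and -0.19 on the normal diet. The restricted-diet arrays thus all lay above the normal-diet arrays, and the resveratrol arrays ran from among the restricted-diet scores to among the normal-diet scores. In all, 49 genes had positive and 20 negative loadings, some of them near 0, such as 0.0030 for mRpL52 and -0.00077 for mRpL24. mRpS18A, mRpL12, mRpL39, mRpL19 and mRpL15 led the positive side, and mRpS5, mRpS30, mRpL48 and mRpS7 the negative side.

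Within each diet, the order of the 3 arrays on this component was the order of their germline marker means. This was picked out of several marker lists after the values were known and is a description only. On the restricted diet replicate 1 was highest and replicate 2 lowest in both measures, with resveratrol replicate 1 was highest and replicate 3 lowest, and on the normal diet replicate 3 was highest and replicate 2 lowest. The eggshell markers had the same order on the restricted diet and with resveratrol but not on the normal diet, with means of 11.72, 7.98 and 8.62 on the restricted diet, 12.50, 11.94 and 8.69 with resveratrol, and 7.08, 8.72 and 8.69 on the normal diet. Midgut markers averaged 12.81, 12.56 and 12.35 on the restricted diet, 12.21, 12.04 and 11.75 with resveratrol, and 11.10, 10.72 and 11.80 on the normal diet. They shared the order with resveratrol and on the normal diet but not on the restricted diet, and their restricted-diet arrays all lay above the normal-diet arrays, as on the component. The part of germline, eggshell, midgut, fat body, muscle, photoreceptor, neuron or RNA quality differences in the members' changes was not tested. Of the 69 members, 18 had their lowest value on resveratrol replicate 3 and 24 on normal-diet replicate 2, so these 2 arrays held the lowest value of 42. The corresponding count over all features was not made. The median deviation from a gene's own mean on these arrays was -0.05 and -0.06 for the members, beside 0.0054 and 0.02 over all features.

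**Figure D3:**
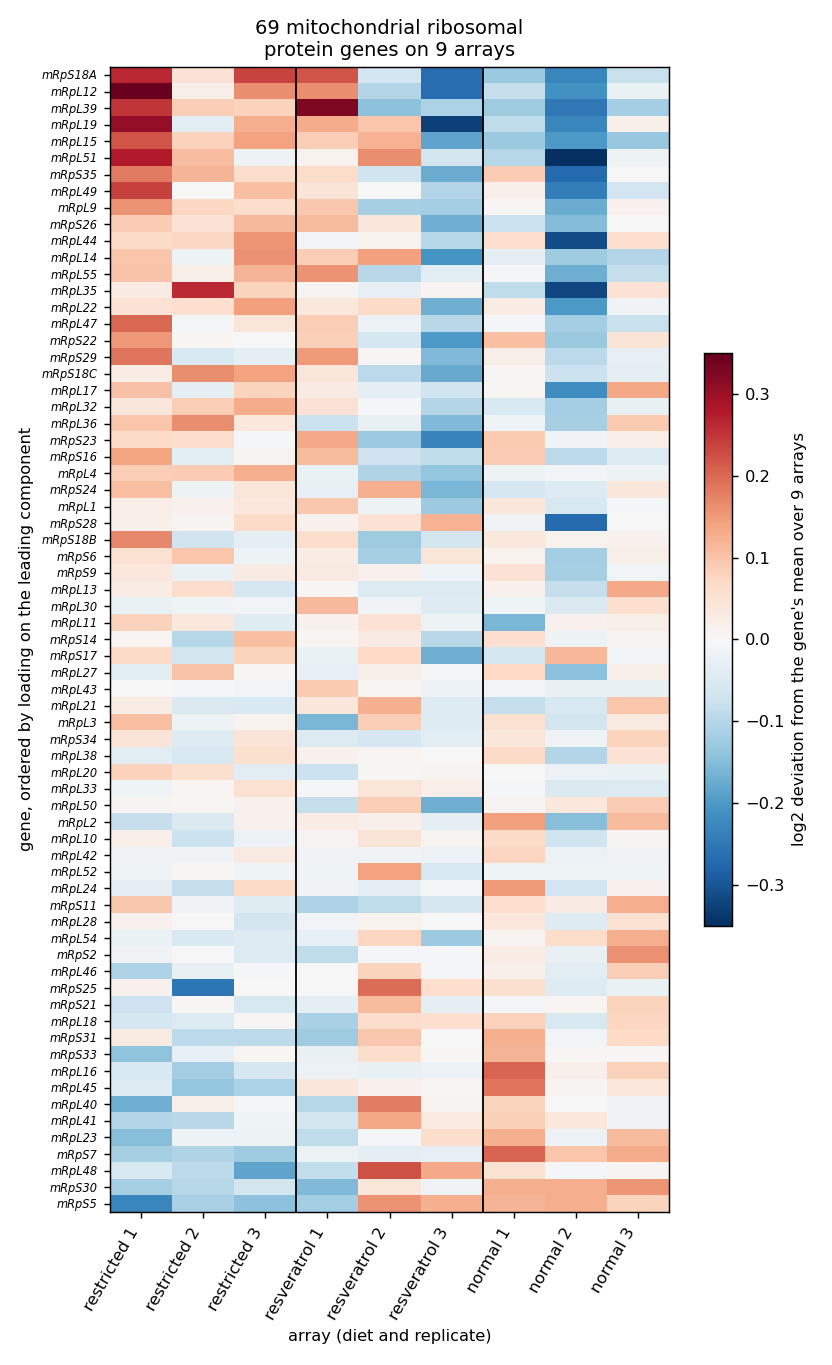
Deviation of each of the 69 genes (rows) from its own mean on each of the 9 arrays (columns, by diet and replicate), red above and blue below, with genes ordered by their loading on the leading component. Genes at the top, led by mRpS18A, mRpL12 and mRpL39, are red on restricted-diet replicate 1 and blue on normal-diet replicate 2 and resveratrol replicate 3; genes at the bottom, such as mRpS30 and mRpS5, show the opposite colours on the restricted-diet and normal-diet arrays.

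**Figure D4:**
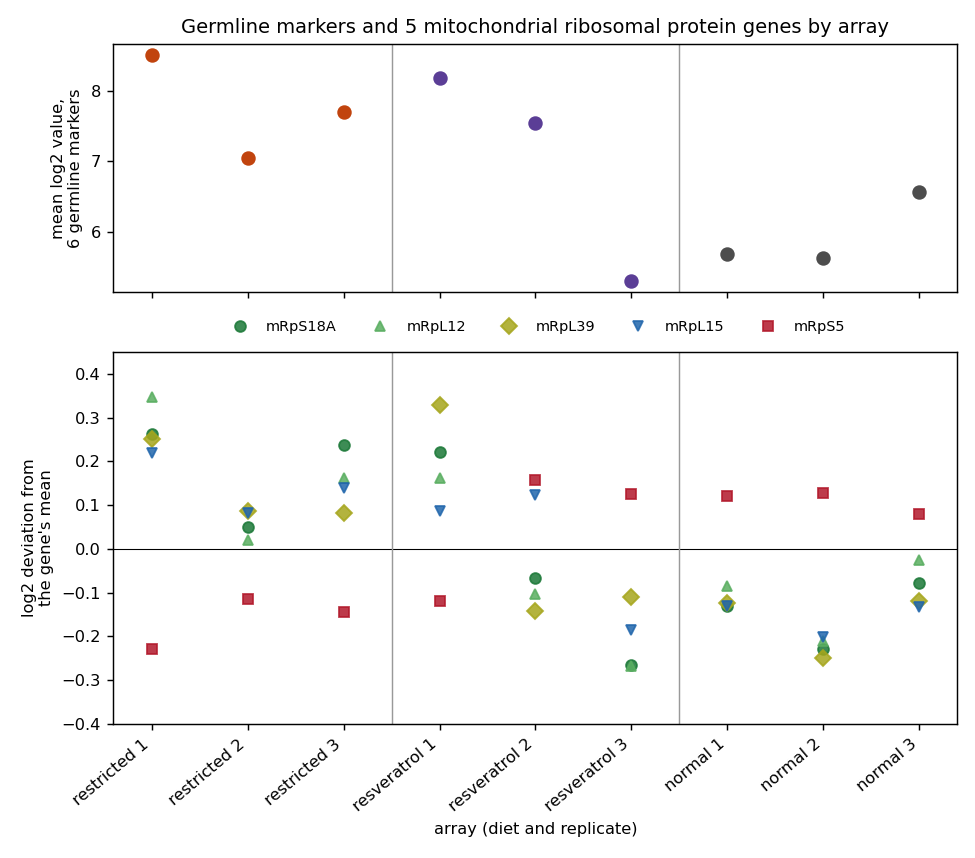
Upper panel, mean log2 value of 6 germline markers on each array; lower panel, log2 deviation of mRpS18A, mRpL12, mRpL39, mRpL15 and mRpS5 from their own means on the same arrays. Germline means of 8.50 and 8.18 on restricted-diet replicate 1 and resveratrol replicate 1 coincide with high values of mRpS18A, mRpL12 and mRpL39. mRpL15 was higher on resveratrol replicate 2 and restricted-diet replicate 3 than on resveratrol replicate 1. mRpS5 was low on both arrays, but restricted-diet replicates 2 and 3 were about as low as resveratrol replicate 1. The genes shown are among those with the largest loadings, and other marker lists are not drawn.

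The subunits were split by the letter of the symbol alone, and both had medians close to 0 on the restricted diet. The large subunit had a median change of 0.03, with 1 gene higher, none lower and 43 not past the threshold. The small subunit had a median of 0.0076, with none higher, 2 lower and 23 not past. The 2 include mRpS30, whose mammalian counterpart has been placed in the large subunit. Whether other members, mRpS18A among them, also sit in a subunit other than their letter was not examined. Past the threshold were 2.27% of the large and 8% of the small subunit, beside 18.2% of all features. Values wholly above the normal diet were seen for 11 of 44 large-subunit and 4 of 25 small-subunit genes, and wholly below for 5 and 3. In either direction these are 36.4% and 28% of the subunits, beside 44.8% of all features (16.4% above and 28.4% below). Of 42 members numbered as in the bacterial ribosome or known to descend from it (mRpL47 and mRpS24), 25 had positive changes, with a median of 0.04. Of 26 members with numbers beyond the bacterial series, 12 had positive changes, with a median of -0.01. mRpL55 was placed in neither class. No test was made between these subsets.

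Flies given resveratrol were compared with those on the normal diet alone. None of the 69 genes passed limma's test, where 0.227% of all features did, and 3 members had an unadjusted p under 0.05, where 9.74% of all features did. The changes ran from -0.18 to 0.20, and every one of the 69 intervals lay between -0.5 and 0.5, as did 76.6% of those of all features. The median change was 0.00055 with 36 genes above 0, and it became -0.03 when the arrays were centred on their medians and -0.0106 after quantile normalization. It was also -0.03 without normal-diet replicate 2. The large subunit had a median of 0.01 and the small subunit -0.04. The groups did not overlap for 7 members (10.1%), beside 15.4% of all features.

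mRpS7 and mRpS30 also had the smallest p values here, with changes of -0.17 (SE 0.05, adjusted p = 0.244) and -0.18 (SE 0.06, adjusted p = 0.366). Both comparisons use the same normal-diet arrays, so these values and those of the restricted diet are not independent. mRpS11 (CG5184), a platform protein of the small subunit, stood at 9.80, 9.69 and 9.66 on the restricted diet, 9.59, 9.61 and 9.64 with resveratrol, and 9.76, 9.73 and 9.83 on the normal diet. Its change with resveratrol was -0.16 (adjusted p = 0.405), but its second probe set, with a slightly lower mean, gave 0.0050, so the 2 probe sets disagree. mRpS28 (CG5497) was the one member wholly above the normal diet under both treatments. It measured 8.32, 8.31 and 8.37 on the restricted diet, 8.32, 8.35 and 8.43 with resveratrol, and 8.29, 8.03 and 8.30 on the normal diet. With resveratrol it changed by 0.16 (adjusted p = 0.593), and normal-diet replicate 2 stood far below the other 2. The highest changes with resveratrol were those of mRpL51 (0.20, adjusted p = 0.651) and mRpL39 (0.19, adjusted p = 0.706), neither past the threshold. mRpL15 changed by 0.16 (adjusted p = 0.606) and mRpL16 by -0.12 (adjusted p = 0.558), with all resveratrol arrays of mRpL16 below the normal-diet arrays. Single arrays weighed on several of these values. Without normal-diet replicate 2, mRpL51 changed by 0.0956 and mRpS28 by 0.0683, and without normal-diet replicate 1, mRpL16 changed by -0.0721. mRpL39 changed by 0.0382 without resveratrol replicate 1, and mRpL15 by 0.11 and 0.26 without resveratrol replicates 2 and 3.

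The restricted diet was also set directly against resveratrol, which tests whether the effects of the 2 treatments differ. None of the 69 genes passed, where 2.54% of all features did, and 5 members had an unadjusted p under 0.05, where 25.2% of all features did. The median change was 0.04 with 43 genes above 0, beside -0.04 over all features, and it was 0.0077 without resveratrol replicate 3. The number of all features past the threshold in this comparison, 224, was 0 without restricted-diet replicate 3 or resveratrol replicate 2 and between 1 and 290 without any one of the other 7 arrays. The 2 groups did not overlap for 8 members (11.6%), beside 31% of all features.

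mRpL4 (CG5818), the relative of a bacterial protein that lines the exit tunnel, came closest to the threshold. It stood at 9.67, 9.67 and 9.71 on the restricted diet, 9.56, 9.48 and 9.45 with resveratrol, and 9.56, 9.57 and 9.56 on the normal diet. It was the only member with every restricted-diet array above and every resveratrol array below the normal-diet arrays, though resveratrol replicate 1 lay next to them. Restricted minus resveratrol was 0.19 (SE 0.05, 95% interval 0.08 to 0.30, adjusted p = 0.0742), and the changes against the normal diet were 0.12 (adjusted p = 0.122) and -0.07 (adjusted p = 0.706). mRpS5 and mRpL48 had the lowest differences, -0.22 (adjusted p = 0.148) and -0.20 (adjusted p = 0.185). mRpL12, mRpS18A, mRpS18C and mRpL36 had differences of 0.25, 0.22, 0.18 and 0.18, with adjusted p = 0.256, 0.291, 0.161 and 0.161. Without resveratrol replicate 3 the differences were 0.15 for mRpL12 and 0.11 for mRpS18A. mRpL12 stood at 0.16 without restricted-diet replicate 1, and mRpS18A at 0.35 without resveratrol replicate 1. mRpL48 (CG17642), a large-subunit protein without a bacterial name, measured 8.56, 8.52 and 8.43 on the restricted diet, 8.53, 8.84 and 8.75 with resveratrol, and 8.67, 8.61 and 8.62 on the normal diet, so that resveratrol replicate 1 lay with the restricted-diet arrays. mRpS18C (CG9688), another S18 relative, stood at 8.82, 8.95 and 8.93 on the restricted diet, 8.83, 8.70 and 8.61 with resveratrol, and 8.79, 8.72 and 8.76 on the normal diet. mRpL36 (CG18767), a small large-subunit protein shared with bacteria, measured 8.90, 8.97 and 8.84 on the restricted diet, 8.73, 8.78 and 8.65 with resveratrol, and 8.79, 8.69 and 8.90 on the normal diet. The restricted-diet and resveratrol arrays did not overlap for mRpL36 and overlapped for mRpS18C by resveratrol replicate 1. The next lowest differences were -0.16 for mRpS25 (adjusted p = 0.278) and -0.12 for mRpL45 (adjusted p = 0.256). For mRpS25 the difference was -0.0761 when restricted-diet replicate 2 was left out and -0.11 when resveratrol replicate 2 was.

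The assignment of probe sets bears on a few members. The 69 genes were named by 71 probe sets, with mRpS11 and mRpL47 each named by 2, and 67 of the 71 were of the standard type. The others were the probe sets of mRpS5 and mRpS11 described above and the second one of mRpL47, of a type that matches several transcripts of a gene, and that of mRpS18B, of a type that can match transcripts of different genes. For mRpL47 the 2 probe sets gave changes of 0.15 and 0.04 on the restricted diet. A further pair of probe sets named a mitochondrial ribosomal protein together with another gene and were not counted as members. The one shared by mRpS10 and CG34316 stood at 9.23, 9.15 and 9.14 on the restricted diet, 9.11, 9.16 and 8.79 with resveratrol, and 8.84, 8.95 and 8.88 on the normal diet (change on the restricted diet 0.28, adjusted p = 0.0784). The one shared by mRpL53 and CG33155 changed by -0.15 (adjusted p = 0.166). In the gene order of the Release 6 annotation no member is the next protein-coding neighbour of another member.

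Genes that work beside the mitochondrial ribosome were examined from lists. tko and bonsai encode further small-subunit proteins under names of their own. tko measured 10.73, 10.69 and 10.84 on the restricted diet, 10.65, 10.76 and 10.66 with resveratrol, and 10.77, 10.68 and 10.72 on the normal diet, changes of 0.03 (adjusted p = 0.738) and -0.03 (adjusted p = 0.901) against the normal diet. bonsai changed by 0.13 (adjusted p = 0.202) on the restricted diet and 0.16 (adjusted p = 0.484) with resveratrol. Of 8 mitochondrial translation factors none passed in any comparison; the elongation factor mEFG1 changed by 0.28 (adjusted p = 0.153) on the restricted diet and 0.33 (adjusted p = 0.465) with resveratrol, and the ribosome recycling factor mRRF1 by 0.28 (adjusted p = 0.109) and 0.04 (adjusted p = 0.934).

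Of 16 mitochondrial aminoacyl-tRNA synthetase and amidotransferase genes, 2 fell on the restricted diet and none rose, PheRS-m by 0.27 (adjusted p = 0.0261) and CysRS-m by 0.25 (adjusted p = 0.043). They charge mitochondrial transfer RNAs with phenylalanine and cysteine. These 2 genes are 12.5% of the list, beside 12.9% of all features past the threshold as lower. PheRS-m did not pass without normal-diet replicate 1 or 2 or restricted-diet replicate 1 or 2 (adjusted p = 0.0543 to 0.0853), and CysRS-m did not pass without any one of the 9 arrays (adjusted p = 0.0501 to 0.128). Slimp, a relative of seryl-tRNA synthetase, changed by -0.23 and did not pass (adjusted p = 0.167). Of 12 genes for mitochondrial DNA and RNA synthesis and processing, 1 fell (8.33%, beside the same 12.9% of all features). PolrMT (CG4644), the RNA polymerase that transcribes the mitochondrial genome, measured 7.93, 8.05 and 7.93 on the restricted diet, 8.28, 8.23 and 8.31 with resveratrol, and 8.35, 8.22 and 8.34 on the normal diet. It fell by 0.33 against the normal diet (SE 0.06, adjusted p = 0.0152), and it was also lower on the restricted diet than with resveratrol (-0.30, adjusted p = 0.0491). Its restricted-diet values lay below all 6 other arrays. The fall against the normal diet did not pass without normal-diet replicate 1 (adjusted p = 0.0564) or restricted-diet replicate 1 (adjusted p = 0.0516). The difference from resveratrol passed without normal-diet replicate 2 (adjusted p = 0.046) but not without any one of the other 8 arrays (adjusted p = 0.0528 to 0.159), nor with arrays centred on their medians (adjusted p = 0.0923). mtSSB, which binds single-stranded mitochondrial DNA, changed by 0.65 on the restricted diet and did not pass (SE 0.23, adjusted p = 0.0823). It measured 10.26, 9.73 and 10.05 on the restricted diet, 9.98, 9.78 and 9.16 with resveratrol, and 9.21, 9.31 and 9.58 on the normal diet. scu, which encodes a subunit of mitochondrial RNase P, changed by 0.26 (adjusted p = 0.0762). Of 3 transcriptional regulators linked to nuclear genes for mitochondria, Ets97D, ewg and Dref, none passed in any comparison, with restricted-diet changes of 0.04, 0.11 and 0.02. The remaining members of these lists did not pass in any comparison.

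2 related gene groups were set beside these changes, cytosolic ribosomal proteins and respiratory chain subunits. Both were picked by gene symbol alone. Whether every product, that of RpL24-like among them, is part of the ribosome or the chain was not checked. Single genes in both changed more than any member. On the restricted diet the changes ran from -0.36 to 2.01 and from -1.15 to 0.18, and neither 2.01 nor -1.15 passed. With resveratrol they ran from -0.16 to 1.02 and from -0.28 to 0.11. Past the threshold on the restricted diet were 2.94% and 5.26% of the groups, beside 18.2% of all features. Of 34 genes named as cytosolic ribosomal proteins, 1 passed on the restricted diet, RpL24-like (-0.36, adjusted p = 0.041), which did not pass without any one restricted-diet or normal-diet array (adjusted p = 0.0621 to 0.123) or without resveratrol replicate 2 (adjusted p = 0.0655), and their median change was 0.05 with 28 above 0. Of 57 respiratory chain subunits, 1 rose (COX7A by 0.18, adjusted p = 0.0496) and 2 fell (COX7AL2 by 0.27, adjusted p = 0.0269, and ND-51 by 0.23, adjusted p = 0.0372), and their median was -0.07 with 8 above 0. None of these 3 passed without normal-diet replicate 1 or 2 or restricted-diet replicate 1 or 3 (adjusted p = 0.0582 to 0.143), COX7A passed without normal-diet replicate 3 (adjusted p = 0.0312) but not without any one of the other 8 arrays, and ND-51 also did not pass without normal-diet replicate 3 (adjusted p = 0.052) or resveratrol replicate 2 (adjusted p = 0.0631). The corresponding medians with resveratrol were 0.02 and -0.05, with 27 of 34 and 5 of 57 above 0, and no gene of either group passed. The mitochondrial ribosomal proteins had 38 and 36 of 69 above 0 in the same comparisons. With an array left out these counts were 32 to 43 and 21 to 42. Centring the arrays on their medians gave 38 and 24, and quantile normalization gave 43 and 30. Such alternatives were not counted for the other 2 groups. The differences between these groups were not tested, and both comparisons share the normal-diet arrays.

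**Figure D5:**
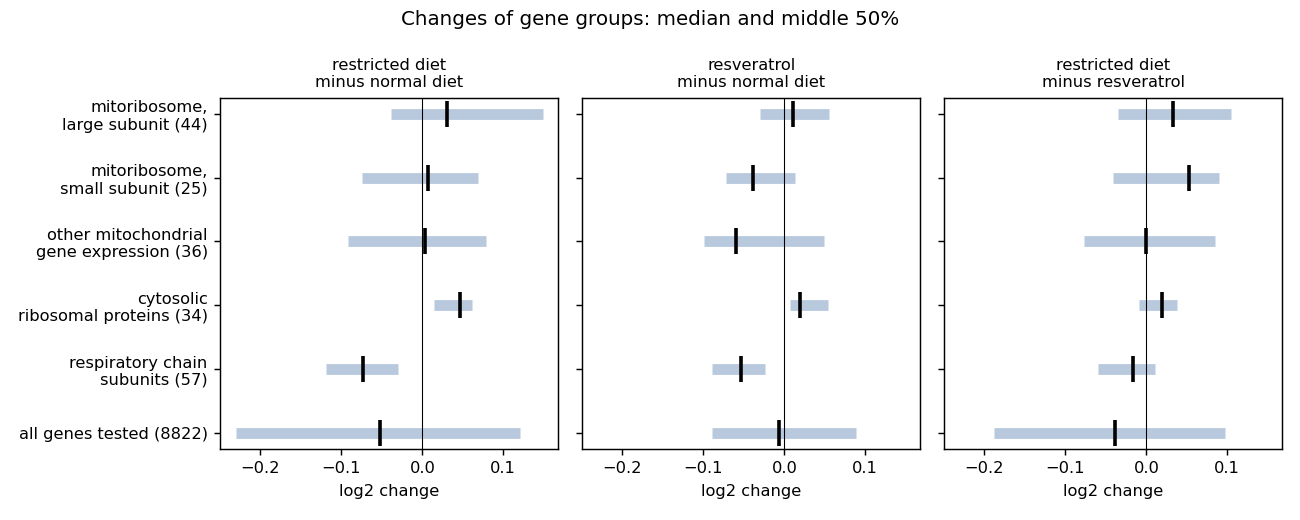
Median (black tick) and middle 50% (bar) of the log2 changes of gene groups in the 3 comparisons, with the number of genes measured in brackets. The large-subunit medians are 0.03, 0.01 and 0.03 and the small-subunit medians 0.0076, -0.04 and 0.05, in the order of the panels; the respiratory chain median is -0.07 on the restricted diet.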

How the data were processed

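The authors deposited 1 log2 value per probe set and array, made with GCRMA per the submitters' processing notes. Neither its version nor which arrays were normalized jointly is stated. Values ran between 2.12 and 16.39, which fits log2. GCRMA widens changes near its floor, which no member approached. Among 18769 non-control probe sets, the platform annotation gave 1 gene for 13647, several for 402 and none for 4720. Features reaching log2 4 on at least 3 of the 9 arrays were tested, with 1 probe set per singly named gene. All arrays entered one limma 3.58.1 fit (R 4.3.3) with a mean per diet, 6 residual degrees of freedom and 1.81 added by the prior. Tests are two-sided, and adjusted p values are Benjamini-Hochberg over all 8822 features within a comparison. The fit was tested on simulated data. The number of arrays limits the precision.

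The members and lists were chosen with earlier results of these data known. Named members are those past the threshold, the 6 smallest p and the 4 highest and 4 lowest changes per comparison; from other lists, those past the threshold and up to 3 more by p. Alternatives covered normalization, filter, probe set, variance model, arrays fitted, a replicate term, threshold and each array left out. Promoter motifs and sequences were not analysed here.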

Additional observations from a re-analysis of the deposited data

Results flagged for a closer look

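The RNA polymerase gene PolrMT, which is not a ribosomal protein gene, was the one gene of the mitochondrial gene expression lists whose levels under the 2 treatments differed in a direct test: restricted diet minus resveratrol was -0.30 (limma, adjusted p = 0.0491), lower on all 3 restricted-diet arrays. It passed without normal-diet replicate 2 but not without any one of the other 8 arrays (adjusted p = 0.0528 to 0.159), nor with centred arrays (adjusted p = 0.0923). None of the 69 mitochondrial ribosomal protein genes differed in this way.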

How the results depend on the processing

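On the restricted diet against the normal diet, 3 members passed as reported. The count was 2 after quantile normalization, 1 with no filter on low values, 6 with only the 2 diets compared in the fit, 7 at an adjusted p under 0.10, and 0 to 5 with an array left out. It was 1 in a fit chosen after seeing the data, without normal-diet replicate 2 and resveratrol replicate 3 together. The cause of these shifts was not tested. All features past the threshold numbered 1604, against 598 with no filter, 2747 at 0.10 and 332 to 1671 with an array left out. With resveratrol against the normal diet no member passed under any alternative. The median change there was -0.0323 with centred arrays and -0.0325 to 0.0229 with an array left out. All features numbered 20, against 1 to 61 over the alternatives. For the restricted diet against resveratrol, 1 member, mRpL4, passed at 0.10 and none otherwise, and the median was 0.0758 after quantile normalization. All features there numbered 224, against 11 with centred arrays, 36 after quantile normalization and 0 to 884 over all alternatives. The change of mRpS11 with resveratrol turned to 0.0050 for the probe set with the largest variance. Of 520 values of named members (26 changes over 20 alternatives), 483 kept direction and side of the threshold, 22 no longer passed, 14 newly passed and 1 turned. Most of the 26 changes had not passed at the outset and so had no call to lose. All 22 lost calls were those of mRpS7, mRpS30 and mRpL15 on the restricted diet, the only changes past the threshold in the main fit.

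Replicates of different diets share numbers, but deviations of same-numbered arrays correlated at -0.328 to 0.399, and 0 to 2 of 6 arrays per comparison correlated best with their own number, so the numbers were not taken as pairs. With the replicate number as a block, 1 member (mRpS7) passed on the restricted diet, and 931, 1 and 0 of all features passed in the 3 comparisons. The difference of PolrMT between the restricted diet and resveratrol did not pass with the block (adjusted p = 0.111). The 3 arrays per diet limit the precision.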
